A study of Mus musculus with 10 samples.

Results

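Of the 31053 genes of the count matrix, 65 are histone cluster genes, the multicopy genes that code for the linker histone H1 and the core histones H2A, H2B, H3 and H4. They were chosen by symbol alone, as all genes whose symbol starts with Hist1h to Hist4h, with *Hist3h2a* and *Hist3h2ba* left out of the 67 that match. By protein, 6 are H1 genes, 17 are H2A genes, 17 are H2B genes, 12 are H3 genes and 13 are H4 genes. In the mm10 assembly, 54 of them form the Hist1 cluster between positions 21715763 and 23934851 of chromosome 13, 10 form the Hist2 cluster between positions 96219865 and 96270132 of chromosome 3, and *Hist4h4* lies on chromosome 6.

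The libraries were made with the 3' v3 kit of 10x Genomics from CD45+ immune cells of the whole brain, sorted from wild-type (WT) mice and Nlrp3 KO mice aged 3, 6 and 9 months. Mice of the *APP/PS1* line, with *Nlrp3* intact or deleted (Nlrp3 KO *APP/PS1*), were sampled at the ages of 3 and 9 months. Nlrp3 KO mice are homozygous for a deletion in the whole body, so every cell type lacks the gene, and *APP/PS1* mice express mutant human amyloid precursor protein together with mutant human presenilin-1 in neurons of the central nervous system. Each of the 10 libraries is a pool of 3 littermates, 2 males and 1 female, so single animals cannot be told apart and each genotype and age is represented by 1 library. All brains were dissociated in actinomycin D, an inhibitor of transcription, and the deposited cell annotation gives all libraries of an age the same batch number, which leaves no way to tell age from batch. What the batch number stands for is not given in the sources used here. The authors' annotation names homeostatic microglia (HM), microglia in transition towards the disease-associated state (TM), interferon-response microglia (IRM), microglia with immediate early genes (IEG), disease-associated microglia (DAM) and proliferating microglia (PM).

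Replication-dependent histone genes are switched on as cells copy their DNA, since each new stretch of DNA has to be packed onto new nucleosomes. Their mRNAs mostly lack introns and end in a short stem-loop in place of a poly(A) tail. The stem-loop binding protein, encoded by *Slbp*, holds this structure from processing to translation, and the mRNAs are degraded when DNA synthesis ends. Some genes of the clusters can also give polyadenylated transcripts in cells that do not divide, and the replacement histones, such as H3.3 and H2A.Z, are coded elsewhere in the genome and made throughout the cell cycle. Microglia, the resident macrophages of the brain, renew by division of existing cells, so PM is the microglial state in which replication-dependent histone mRNA would be looked for.

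The histone stem-loop was read from the GENCODE transcripts of mm10 to show the structure these mRNAs share. Capitals mark the 6 bases on each side that pair in the stem and lower case the 4 bases of the loop, written as DNA, 5' to 3', on the strand of the gene. Among the sequences shown, the stems of the H4 genes differ from the others in a base pair.
*Hist1h1c*, chr13:23739512-23739527, plus strand: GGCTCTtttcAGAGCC
*Hist1h2ap*, chr13:21833029-21833044, minus strand: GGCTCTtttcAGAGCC
*Hist1h3c*, chr13:23745047-23745062, minus strand: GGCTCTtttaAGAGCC
*Hist2h2ac*, chr3:96220418-96220433, minus strand: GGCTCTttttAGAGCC
*Hist1h4d*, chr13:23581950-23581965, plus strand: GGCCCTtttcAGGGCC
*Hist1h4i*, chr13:22040966-22040981, minus strand: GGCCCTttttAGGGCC
The longest annotated transcript held a stem-loop in 43 of the 65 genes, and 23 of these carried the sequence shown for *Hist1h1c*. A stem-loop past the annotated end of a transcript is not found in this way. The H4 form shown for *Hist1h4d* was found in 7 genes.

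Microglia of a library held between 9357431 and 35107144 unique molecular identifiers (UMIs, tags of single captured RNA molecules), with a median of 3978 to 5985 UMIs per cell. Levels are given as CPM (UMIs of the gene per 1e6 UMIs of the cells summed). *Nlrp3* was counted with 390 to 1425 UMIs in the microglia of the 5 libraries with an intact gene and with 0 UMIs in all 5 Nlrp3 KO libraries. PM made up 1.15 to 3.76% of microglia, 56 to 166 cells per library, and 246 cell barcodes occurred in more than 1 library. PM cells kept the microglial markers *P2ry12* at 2595 CPM and *Tmem119* at 1514 CPM, and held *Mki67*, a marker of cycling cells, at 522 CPM against 0.157 CPM in HM. *Cd163*, *Cd3e* and *Ms4a1*, markers of border macrophages, T cells and B cells, were at 0 UMIs in PM. Other markers of these lists were counted there, with the border macrophage markers *Mrc1* at 14.2 CPM in PM against 5.35 CPM in HM and *Pf4* at 2.91 against 0.791 CPM. The monocyte marker *Ccr2* was at 20.2 against 5.69 CPM, and the T cell markers *Cd3d* and *Trac* were at 0.582 against 0.259 CPM and 0.388 against 0.116 CPM. The part of other cells in the histone values of PM was not tested. In PM, 21.3% of cells had a doublet score over 0.5 against 7.63% of all microglia, and the median PM cell held 5796 UMIs against 4366 in HM. Their part in the values of PM was looked at only by leaving out such cells and by thinning.

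Histone cluster genes gave 75766 of the UMIs of microglia, or 0.0390%. The Hist1 cluster held 89.4% of these, the Hist2 cluster 7.32% and *Hist4h4* 3.26%, and the 6 genes with the most UMIs held 64.1%. Of the 65 genes, 60 were counted in microglia at least once. How far mRNAs that end in a stem-loop in place of a poly(A) tail were captured by the 3' kit was not tested. Levels are therefore those of captured RNA only. The 36 genes with at least 200 UMIs in microglia or 20 UMIs in PM are named below, and the other 29 reached at most 160 UMIs in microglia and 19 in PM.

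Summed over all 65 genes, the level was higher in PM than in HM in all 10 libraries, by 2.67-fold ± 0.83 (SD, n = 10 libraries). The sum in PM had a lowest value of 534 CPM in WT mice at 6 months, a median of 1014 CPM and a highest value of 1765 CPM, which was that of Nlrp3 KO *APP/PS1* at 9 months. In HM it ran from 314 to 581 CPM with a median of 383 CPM. The ratio was lowest, at 1.31, in WT mice at 6 months and highest, at 4.28, in the same library as the highest sum. In that library *Hist1h2ap* alone held 738 of the 1765 CPM in PM, so both highest values rest in part on this gene. States are clusters that the authors made from these same cells, so PM and HM are set side by side as a description and without a test. Leaving out cells with a doublet score over 0.5 gave a mean ratio of 2.32, and thinning every cell to 2000 UMIs gave 2.13.

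The ratio of single named genes ran from 0.301 for *Hist2h3c2* to 783 for *Hist1h1b*. For description the genes were sorted by a pair of limits, at least 20 UMIs in PM with a PM level at least 8 times that of HM (PM-linked, 11 genes) and an HM level of at least 1 CPM with a PM level under 2 times that of HM (broadly counted, 13 genes). The remaining 41 genes, of which 12 are named, stayed ungrouped. Since the limits use these same levels, the ratios of the classes follow in part from the sorting. PM-linked genes summed to 110 to 1143 CPM in PM (median 431) and to 13.9 to 53.1 CPM in HM (median 29.3), a ratio of 15.8 ± 7.95 (SD, n = 10). Broadly counted genes summed to 222 to 367 CPM in PM (median 279) and 231 to 413 CPM in HM (median 250), a ratio of 1.09 ± 0.20. As background, 309 of all 10225 genes with at least 20 UMIs in PM (3.02%) reached 8 times the HM level, with a median ratio of 1.04, beside 11 of 33 histone cluster genes (33.3%), with a median of 2.97. The filter is on PM itself, so genes counted almost wholly in PM enter through the level compared, and nothing is read from these shares. *Hist1h2ae* at 8.13-fold and *Hist2h2bb* at 8.18-fold lay just inside the upper limit, and *Hist1h2bj* at 6.55-fold lay nearest outside it among genes with enough UMIs. At the lower limit *Hist1h4d* at 1.81-fold lay inside and *Hist1h3d* at 2.03-fold outside.

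**Figure D1:**
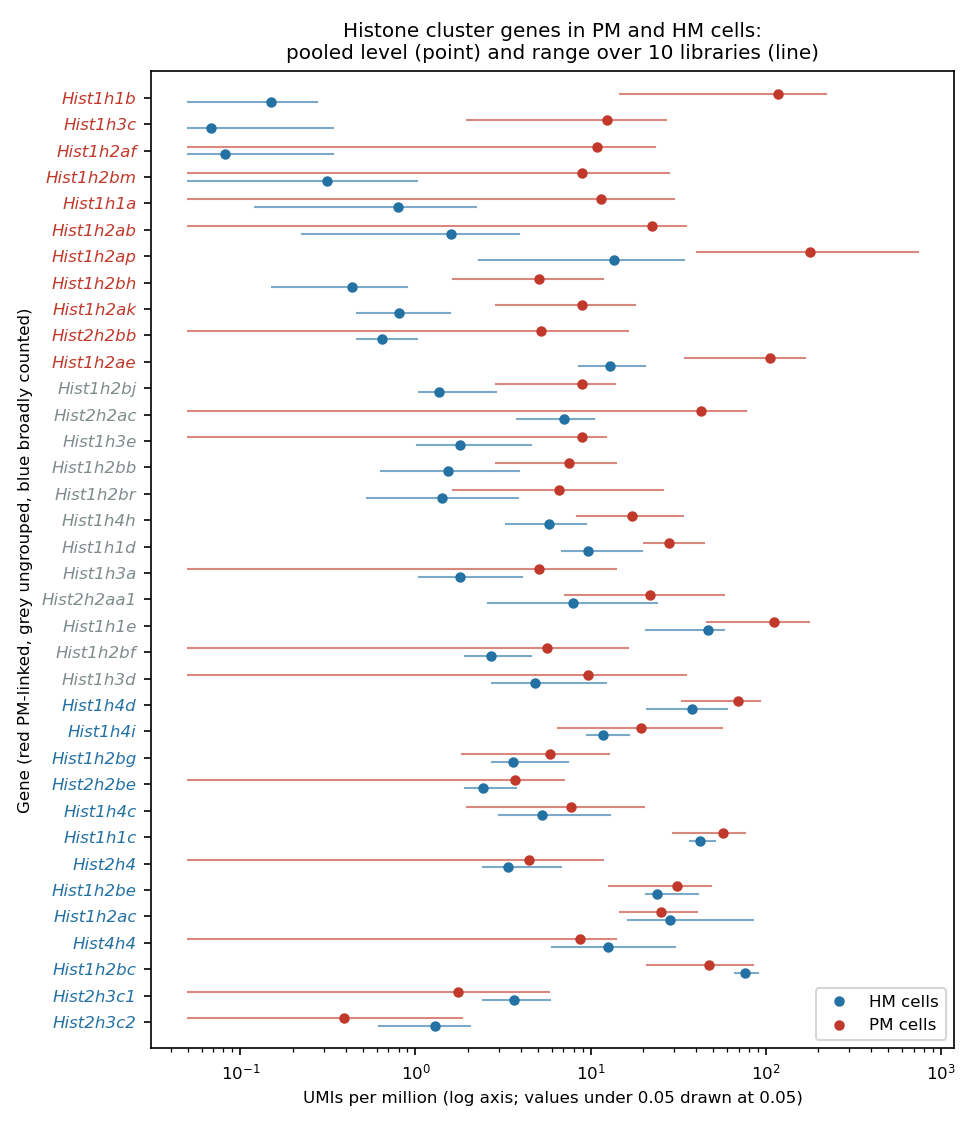
Level in CPM of each named histone cluster gene in PM (red) and HM (blue) cells on a log axis, as the level over all libraries (point) and the range over the 10 libraries (line), with values under 0.05 drawn at 0.05. *Hist1h1b* reached 117 CPM in PM against 0.150 CPM in HM, whereas *Hist1h2bc* was at 47.4 CPM in PM and 76.0 CPM in HM.

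The linker histones, which bind the DNA between nucleosomes, ranged from the most PM-linked gene to genes counted in every state. *Hist1h1b*, which codes for H1.5, had 605 of its 638 microglial UMIs in PM. Its PM level had a minimum of 14.8 CPM in Nlrp3 KO mice at 6 months, a median of 101 CPM and a maximum of 222 CPM (Nlrp3 KO *APP/PS1*, 3 months), and no HM value exceeded 0.274 CPM. The ranges did not overlap, and over all libraries the ratio was 783. *Hist1h1a* (H1.1) had 11.5 CPM in PM against 0.798 CPM in HM, higher in PM in 9 of 10 libraries. *Hist1h1d* (H1.3), ungrouped, had 20.3 to 44.5 CPM in PM (median 27.3) and 6.90 to 19.5 CPM in HM (median 10.5), again without overlap. *Hist1h1e* (H1.4), also ungrouped, was at 112 against 46.9 CPM, with the PM value above the HM value in 10 of 10 libraries. *Hist1h1c* (H1.2) was broadly counted, with 29.6 to 75.8 CPM in PM (median 58.0) and 37.0 to 51.7 CPM in HM (median 41.1), ranges that overlapped. Of 91-base reads from the last 500 bases of the annotated *Hist1h1e* transcript, only 0.976% of positions are found in no other gene, since 99.0% lie in the overlapping transcript of *Hist1h2be*, so the counts of this gene are uncertain.

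Among the H2A genes, which code for a core histone that pairs with H2B, 5 were PM-linked and held the largest share of the PM-linked UMIs. *Hist1h2ap* had 40.6 to 738 CPM in PM (median 94.9) and 2.30 to 34.1 CPM in HM (median 12.4). *Hist1h2ae* had 34.8 to 167 CPM in PM (median 95.9) and 8.59 to 20.4 CPM in HM (median 13.0). For both genes the lowest PM library lay above the highest HM library. *Hist1h2ab* was at 22.5 CPM in PM against 1.60 CPM in HM, *Hist1h2af* at 10.9 against 0.0818 CPM and *Hist1h2ak* at 8.93 against 0.804 CPM. *Hist2h2ac* was ungrouped at 42.9 CPM in PM and 7.04 CPM in HM, as was *Hist2h2aa1* at 21.7 and 7.90 CPM. *Hist1h2ac* was broadly counted, at 25.2 CPM in PM and 28.2 CPM in HM. H2A genes are close copies of each other. Only 7.65% of read positions of *Hist1h2ap* occur in no other gene, 92.3% being shared with *Hist1h2ao*, and for *Hist2h2aa1* none do, all being shared with *Hist2h2aa2*. The annotation used for counting is not given in the sources used here and may differ from the one searched. The copies *Hist1h2ao* and *Hist2h2aa2* held 5 and 2 UMIs in microglia, and how shared reads were treated was not tested.

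H2B genes gave 29% of the histone cluster UMIs of microglia and, as a family, the lowest ratio of PM to HM, 1.22 against 5.76 for H2A, 3.28 for H1, 3.22 for H3 and 1.65 for H4. *Hist1h2bc*, the cluster gene with the most UMIs in microglia, was lower in PM than in HM in 8 of 10 libraries, with 21.1 to 84.6 CPM in PM (median 53.5) and 67.1 to 90.9 CPM in HM (median 77.5). For *Hist1h2be* PM held 31.3 CPM to the 23.8 CPM of HM, with *Hist1h2bg* at 5.82 and 3.61 CPM and *Hist2h2be* at 3.69 and 2.41 CPM, so all 3 were broadly counted too. The PM-linked H2B genes were low in level, namely *Hist1h2bm* at 8.93 CPM in PM against 0.314 CPM in HM, *Hist2h2bb* at 5.24 against 0.641 CPM and *Hist1h2bh* at 5.05 against 0.436 CPM. *Hist1h2bj*, *Hist1h2bb*, *Hist1h2br* and *Hist1h2bf* were ungrouped, with ratios of 6.55, 4.96, 4.63 and 2.10. *Hist1h2bj* and *Hist1h2bh* were the H2B genes whose PM and HM ranges did not overlap.

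H3 and H4 form the inner core of the nucleosome, and they gave 3.87 and 20.1% of the histone cluster UMIs. *Hist1h3c* was PM-linked, with 1.98 to 26.9 CPM in PM (median 13.4) and at most 0.340 CPM in HM. *Hist1h3e*, *Hist1h3a* and *Hist1h3d* were ungrouped at 8.93, 5.05 and 9.71 CPM in PM. *Hist2h3c1* and *Hist2h3c2* were lower in PM, at 1.75 against 3.67 CPM and at 0.388 against 1.29 CPM, on 9 and 2 UMIs in PM. No H4 gene was PM-linked. *Hist1h4d*, the leading H4 gene, had 33.4 to 92.8 CPM in PM (median 73.1) and 21.1 to 60.5 CPM in HM (median 34.0) and was higher in PM in 10 of 10 libraries, though the ranges overlapped. *Hist1h4h* was ungrouped, at 17.3 and 5.81 CPM. *Hist1h4i* was at 19.4 and 11.8 CPM, *Hist1h4c* at 7.77 and 5.28 CPM and *Hist2h4* at 4.47 and 3.37 CPM. *Hist4h4* was at 8.74 against 12.6 CPM, with the HM value above the PM value in 9 of 10 libraries.

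The UMIs of the PM-linked genes sat in few PM cells. Of 790 PM cells, 33.0% held at least 1 UMI of these genes and 17.8% held at least 3, and the latter cells held 94.2% of the 2508 PM-linked UMIs of PM. In HM, 12.2% of cells held at least 1 and 0.332% at least 3, and these held 7.63% of the UMIs. After every cell was thinned to 2000 UMIs, *Hist1h1b* was found in 8.61% of PM cells (95% exact binomial interval 6.75 to 10.8%) and in 0.0345% of HM cells (0.0172 to 0.0617%). Without thinning the shares were 13.4 and 0.0657%. *Hist1h2bc* was found after thinning in 8.61% of PM cells and in 13.3% of HM cells (12.9 to 13.7%). These intervals cover counting error only, since cells of a library are not independent.

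The annotated transcripts of the PM-linked and broadly counted genes differed beyond the stem-loop. Where a stem-loop was found, the transcripts of the 11 broadly counted genes went on for a median of 840 bases past it, at least 155 in each, and 8 of the 11 held a poly(A) signal there (AATAAA or ATTAAA). The 6 PM-linked genes with a stem-loop went on for a median of 60 bases, from 3 to 1214, and 2 of them held such a signal. *Hist1h2ap* ended 3 bases past the stem-loop, *Hist1h3c* 74, *Hist1h2ae* 151 and *Hist1h2bh* 1214, whereas *Hist1h1c* ended 840, *Hist1h2ac* 2010 and *Hist4h4* 2445 bases past it. The longest annotated transcripts of *Hist1h1b*, *Hist1h1a*, *Hist1h2ak*, *Hist2h2bb* and *Hist1h2af* held no stem-loop, nor did those of *Hist1h2bc*, *Hist2h2be* and *Hist1h2br*, and *Hist1h2bc* is annotated with 2 exons. *Hist2h2bb*, *Hist1h2ak* and *Hist1h2af* are annotated with only 381, 393 and 399 bases, against 1156 for *Hist1h2bc*. A stem-loop past an annotated end cannot be found, so no absence from the gene is read from these. Median annotated length was 524 bases for PM-linked and 1560 for broadly counted genes, and the stretch searched depends on it. A median of 58.8% of read positions was unique to the gene for PM-linked genes and 100% for broadly counted genes. Among the latter *Hist2h3c1* had 0%, all of its positions being shared with 1 other gene, so its counts are uncertain.

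Promoters could be read for 59 of the 65 genes from RefSeq (GRCm38.p6), and the 250 bases before the start were searched on both strands. The letters CCAAT were found in 81.4% of these genes, against 34.5% of 27025 genes in all, TATAAA in 47.5% against 13.0%, and the octamer ATTTGCAT, which binds octamer factors, in 20.3% against 1.61%. CCAAT was found in all 10 PM-linked genes with a promoter and in 6 of 10 broadly counted genes. The broadly counted genes without it were the H4 genes *Hist4h4* and *Hist1h4i* and the H3 genes *Hist2h3c1* and *Hist2h3c2*. No H4 gene was PM-linked, and the part of the histone family in this difference was not tested. TATAAA was found in 4 of 10 genes in both classes, and the octamer in 4 PM-linked and 2 broadly counted genes. The stretch around the CCAAT letters, in capitals and on the strand of the gene, is shown for a PM-linked and a broadly counted linker histone gene and for *Hist1h4d*, where it reads in the reverse direction. Searches of this kind describe letters in the sequence and no binding.
*Hist1h1b*, chr13:21780661-21780690, minus strand: ttggccgctccaCCAATcacagcccagcac
*Hist1h1c*, chr13:23738741-23738770, plus strand: gccgctggagcaCCAATcagcgcgcgcctg
*Hist1h4d*, chr13:23581516-23581545, plus strand: aaacaggtccgcATTGGtattataaaagcc
The letters lie 53, 54 and 40 bases before the annotated start of the respective gene.

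PM cells were then divided by S and G2/M scores to ask in which of them the histone genes were counted. Scores were the UMIs of 39 S-phase genes and 49 G2/M genes, none of them a histone gene, as shares of the UMIs of the cell, standardised over PM cells. Of the PM cells, 403 scored higher for S and 387 for G2/M, and 488 had scores within 0.5 SD of each other. UMIs were summed per library over each class and fitted with the quasi-likelihood test of edgeR, with the library as a block and Benjamini-Hochberg adjustment over all genes. Calls required an adjusted p under 0.05 and a fold over 2. Of the 65 histone cluster genes 14 had enough counts to be tested, 11 were called, and 14 of 14 had a lower level in S-scored than in G2/M-scored cells. None was called higher in S-scored cells. Of all 6341 genes tested 3.28% were called, 1.17% higher in S and 2.11% higher in G2/M. The median log2 fold change was -1.46 for the 14 members and 0.02 for all genes tested. A gene can pass the filter on counts through its G2/M-scored sums alone, and the part of this in the shared direction was not tested. At an unadjusted p under 0.05, 13 of 14 members passed against 20.8% of all genes, and DESeq2 called 10.

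*Hist1h2ae* fell furthest, at a mean of 36.7 CPM in S-scored and 166 CPM in G2/M-scored cells (log2 fold change -2.19, SE 0.18, adjusted p = 1.43e-13 by edgeR), lower in S in 10 of 10 libraries. The linker genes *Hist1h1b* (-2.16, SE 0.26, 9.42e-09), *Hist1h1c* (-1.97, SE 0.20, 4.16e-11) and *Hist1h1e* (-1.47, SE 0.17, 1.89e-09) were all lower in S by the same edgeR test. Of the H2A genes, *Hist1h2ab* differed by -1.78 (SE 0.39), *Hist1h2ap* by -1.55 (SE 0.21), *Hist1h2ac* by -1.34 (SE 0.33) and *Hist2h2ac* by -1.18 (SE 0.24). *Hist1h4d* (-1.49, SE 0.18) and *Hist1h4i* (-1.45, SE 0.39) were called among the H4 genes and *Hist1h2bc* (-1.11, SE 0.21) among the H2B genes. So broadly counted genes were called beside PM-linked genes. *Hist1h1d* (-0.92, SE 0.30) and *Hist1h2be* (-0.80, SE 0.26) had adjusted p of 0.0392 and 0.0418 by edgeR but did not reach a fold of 2, and *Hist2h2aa1* (-0.48, SE 0.34) did not pass. Thinning every PM cell to 2000 UMIs left 3 members with enough counts, of which 2 were called. Leaving out cells with a doublet score over 0.5 gave 9 called of 10 tested. Of all genes tested, 3.14% were called after thinning and 3.1% without cells of a high doublet score.

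**Figure D2:**
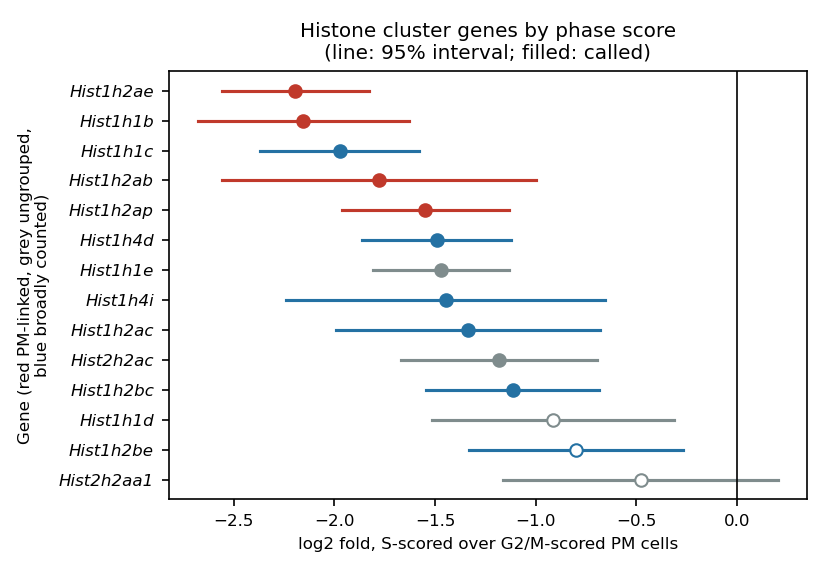
Log2 fold change between S-scored and G2/M-scored PM cells for the 14 histone cluster genes tested, with 95% intervals from edgeR (lines) and called genes filled. All 14 points lie below 0, from -2.19 for *Hist1h2ae* to -0.48 for *Hist2h2aa1*, whose interval crosses 0.

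Other genes of the histone pathway moved in both directions in this comparison. *Slbp* was higher in S-scored cells (282 against 162 mean CPM, log2 fold change 0.79, SE 0.13, adjusted p = 4.16e-06 by edgeR), below the fold limit. Of 13 chaperone genes tested 3 were called, all higher in S, namely *Nasp* (1.11), which carries free H3 and H4, and *Chaf1a* (1.20) and *Chaf1b* (2.72), subunits of the factor that places H3 and H4 behind the replication fork. Of 9 replacement histone genes tested 3 were called, all lower in S, namely *Cenpa* (-2.88), the H3 variant of centromeres, *H2afx* (-1.72) and *H1f0* (-1.65). *H2afz* (-0.52) and *H3f3b* (-0.50) had the same sign below the fold limit. *Mki67* (-1.80) is one of the G2/M genes of the score, so its direction was set by the split. Of 9 genes for histone mRNA processing tested 0 were called by edgeR or DESeq2, and 3 had an unadjusted p under 0.05, *Slbp* among them. As the split requires, 24 of 39 S genes were called higher and 37 of 48 tested G2/M genes lower in S. Among the markers of other cells, *Mrc1* (4.04 against 22.7 mean CPM) and *Ccr2* (5.33 against 34.7 mean CPM, higher in S in 5 of 10 libraries) were called lower in S-scored cells, and *Ccr2* was not called by DESeq2. The part of these cells in the histone values was not tested.

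A cell low in both scores is placed by a small difference, and 86 S-scored and 187 G2/M-scored cells lay below the median of both shares. PM cells were therefore also divided into 4 classes by the medians of the S share and of the G2/M share, an arrangement chosen after seeing the data. The 273 cells above both medians held 74.8% of all histone cluster UMIs of PM and 91% of the PM-linked UMIs. Their summed level over all 65 genes was 1979 CPM, from 757 to 2727 CPM over libraries (median 1947). Cells above the G2/M median only (122 cells) had 811 CPM, cells above the S median only (122 cells) 265 CPM and cells below both (273 cells) 355 CPM. The PM-linked sum over all cells of these classes was 1103, 198, 25.0 and 34.0 CPM. The order of the last 2 classes was not fixed in single libraries, where the PM-linked sum in cells above S only and below both was 52.4 and 30.1 CPM in Nlrp3 KO at 9 months but 7.98 and 43.4 CPM in Nlrp3 KO *APP/PS1* at 3 months. *Hist1h1b* was at 276 CPM in cells above both medians, 44.1 CPM in cells above the G2/M median only and 0 in the other 2 classes. *Hist1h2bc* was lowest in the class with the highest sum, at 16.4 CPM in cells above both medians, 86.9 CPM in cells above G2/M only, 41.7 CPM in cells above S only and 71.1 CPM in cells below both. Doublet scores over 0.5 were found in 26.4, 23.0, 18.0 and 16.8% of cells in the order above both, G2/M only, S only and below both, and their part in this order was not tested. *Slbp*, which is in neither score, was at 366, 75.2, 167 and 121 CPM in the same order. *Mki67*, one of the G2/M genes that set the classes, was at 1074, 597, 0 and 2.52 CPM. Its near absence at or below the G2/M median was thus set by the classes. Of the S-scored cells 86 lay below both medians and 317 did not. So S-scored cells are not those of a single class and cannot be read as cycling from the score alone. With the cells below both medians left out of the S against G2/M split, 13 of 14 genes tested were called, again all lower in S. Of all 4793 genes tested in that split, 5.82% were called.

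**Figure D3:**
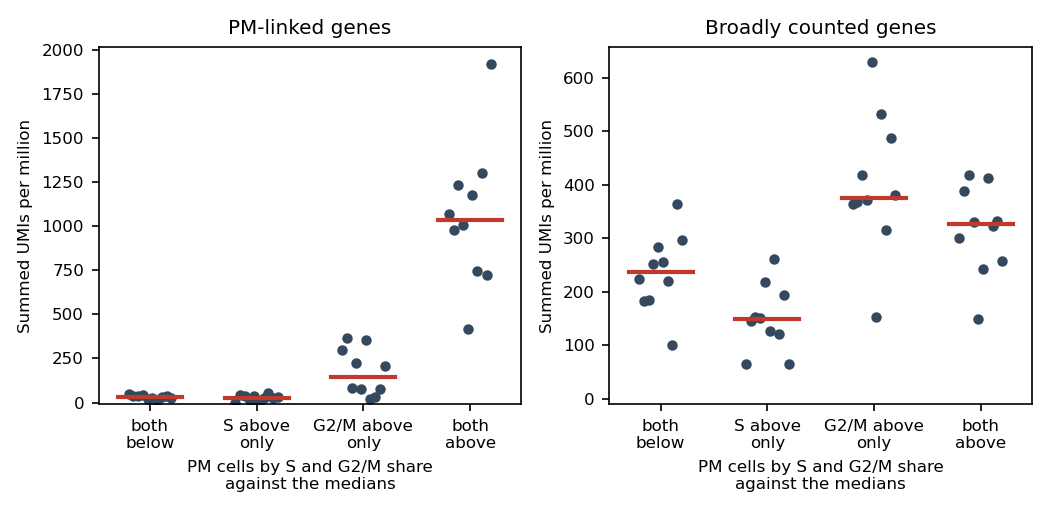
Summed CPM of the PM-linked (left) and broadly counted (right) genes in PM cells divided by the medians of the S share and the G2/M share, with a point per library and the median over the 10 libraries as a red line. The PM-linked sum was highest in cells above both medians, at 1103 CPM over all such cells. The broadly counted sum over all cells of a class was highest above the G2/M median only, at 391.8 CPM. It was 329 CPM above both, 229 CPM below both and 150 CPM above the S median only. The order turned between libraries, as in Nlrp3 KO at 6 months, with 152 CPM above the G2/M median only and 242 CPM above both.

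Beside the clusters, the pathway genes were set side by side in PM and HM as a description. Of all genes with at least 20 UMIs in PM 3.02% reached 8-fold, with a median ratio of 1.04. That share is filtered on PM itself, so nothing is read from it. No share of all genes was taken at 2-fold, so the counts at 2-fold are given without a background. *Slbp* was at 219 CPM in PM and 76.8 CPM in HM, a ratio of 2.85. *H2afz*, which codes for H2A.Z, was at 1541 and 358 CPM, and *H3f3b*, which codes for H3.3, at 1018 and 912 CPM. Of 11 replacement histone genes 6 were at least 2 times and 4 at least 8 times higher in PM. Of these *H2afy2* and *H1fx* held only 1 and 5 UMIs there, under the limit of 20 UMIs. Of 12 genes for histone mRNA processing found in the matrix 3 were at least 2 times higher, among them *Zfp473* with only 1 UMI in PM. Of 16 histone chaperone genes 8 were at least 2 times and 3 at least 8 times higher, namely *Asf1b* (34.5), *Chaf1a* (94.9) and *Chaf1b* (23.3). *Cenpa* was at 37.7 times and *H2afx* at 16.9 times the HM level in PM.

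Over all libraries, the summed levels of the states other than PM lay nearer to each other than to that of PM. The summed level over all libraries was 380 CPM in HM, 401 CPM in TM, 336 CPM in IRM, 301 CPM in IEG and 308 CPM in DAM, against 1063 CPM in PM. By library, DAM ran from 198 to 387 CPM (median 316) and HM from 314 to 581 CPM (median 383), ranges that overlapped. Within libraries DAM lay below HM except in Nlrp3 KO at 3 months (387 against 358 CPM) and 6 months (347 against 340 CPM). IRM lay below HM except in WT at 9 months (371 against 314 CPM). IEG lay below HM except in Nlrp3 KO at 9 months (570 against 415 CPM) and WT at 6 months (436 against 407 CPM). The PM-linked sum was 14.6 CPM in DAM and 31.5 CPM in HM, and was lower in DAM except in WT at 3 months (49.7 against 31.6 CPM). *Hist1h2bc* stood higher in DAM, at 103 CPM against 76.0 CPM in HM, and was higher in 7 of 10 libraries (39.5 to 126 CPM, median 91.3). After thinning to 2000 UMIs it was found in 17.9% of DAM cells (95% exact binomial interval 15.4 to 20.6%) and 13.3% of HM cells, and in 41.0 and 26.6% without thinning. *Hist4h4* and *Hist1h2ac* were lower in DAM than in HM in 9 and 8 of 10 libraries, at 5.17 against 12.6 CPM and at 17.4 against 28.2 CPM. In IEG cells *Hist1h2bc* was lower than in HM in 10 of 10 libraries, at 53.0 CPM, and in IRM cells *Hist1h1c* was lower in 10 of 10, at 36.1 CPM against 41.9 CPM.

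The other CD45+ cells were taken from the annotation of all cells. Precursors (50 cells) had a PM-linked sum of 1072 CPM, B cells (533 cells) 764 CPM, PM 487 CPM, neutrophils (79 cells) 430 CPM and monocytes (149 cells) 323 CPM. These are values over all libraries, and the order of B cells and PM turned between libraries, at 1111 against 110 CPM in WT at 6 months but 37.1 against 445 CPM in *APP/PS1* at 9 months. Precursors and neutrophils had at least 10 cells in only 2 libraries, so no spread is given. In B cells the sum ran from 21.9 CPM (Nlrp3 KO *APP/PS1*, 9 months, 11 cells) to 1355 CPM (Nlrp3 KO, 6 months, 78 cells), with a median of 516 CPM. T cells had 70.9 to 767 CPM (median 138), and border-associated macrophages (BAM) 15 to 46.8 CPM (median 27.2), a range that overlapped with that of HM. *Mki67* was at 252 CPM in precursors, 272 CPM in B cells, 522 CPM in PM, 125 CPM in neutrophils, 86.8 CPM in monocytes, 69.9 CPM in T cells and 3.67 CPM in BAM, so the types with the highest sums did not follow its order. *Hist1h1b* was at 294 CPM in B cells, 40.7 CPM in T cells, 4.25 CPM in BAM and 0.150 CPM in HM, and was found after thinning in 9.38% of B cells (7.04 to 12.2%). The broadly counted genes did not follow this order. *Hist1h2bc* was at 7.13 CPM in T cells, 37.9 CPM in B cells, 18.5 CPM in BAM and 108 CPM in BAM with *Lyve1*, against 76.0 CPM in HM, and was found in 0.939% of T cells after thinning (0.526 to 1.54%). It was lower than in HM in 10 of 10 libraries in T cells, B cells and BAM. *Hist1h1c* was at 44.3 CPM in T cells, 68.7 CPM in B cells and 31.3 CPM in BAM, against 41.9 CPM in HM, and was higher than in HM in 5, 8 and 1 of 10 libraries.

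**Figure D4:**
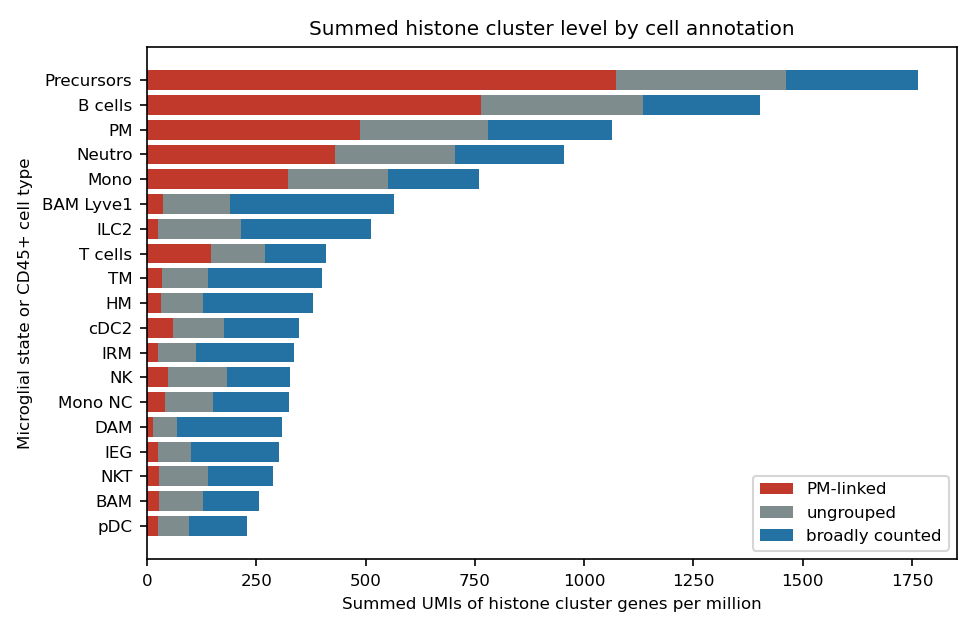
Summed CPM of the histone cluster genes over all libraries in each annotated microglial state and CD45+ cell type, divided into PM-linked (red), ungrouped (grey) and broadly counted (blue) genes. The PM-linked share was 60.8% in precursors, 54.5% in B cells and 45.8% in PM, and 8.28% in HM.

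Whether *Nlrp3* deletion changed histone levels in microglia was asked in 5 pairs of libraries, each with the gene deleted in one and intact in the other at equal age and background. UMIs were summed over all microglia of a library, in which fewer cells of a state and less RNA per cell cannot be told apart. The sum over all 65 genes in KO over WT was 1.02 and 0.848 at 3 months (non-diseased and *APP/PS1*), 0.853 at 6 months, and 1.28 and 0.842 at 9 months. Of the 41 genes with enough counts, edgeR with the pair as a block called 0, as did DESeq2, against 0.0242% of 12383 genes. The median log2 fold change of the 41 was -0.09 (0.01 for all genes tested). *Hist1h2ab* alone had an unadjusted p under 0.05 (4.64% of all genes did), at 1.52 against 2.33 mean CPM (-0.59, SE 0.21, adjusted p = 0.90 by edgeR), lower in 5 of 5 pairs. The interval was narrow for the most counted genes, with a log2 fold change of -0.08 for *Hist1h2bc* (95% interval -0.22 to 0.07) and -0.04 for *Hist1h1c* (-0.16 to 0.08), and wide for *Hist1h1b* (0.13, -0.61 to 0.88).

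Each background was then given its own Nlrp3 term in a fit of all 10 libraries. The *APP/PS1* pairs alone leave too few degrees of freedom, so p-values and SEs share the spread of the pairs of both backgrounds. Within the non-diseased pairs 0 of 41 genes were called by edgeR or DESeq2 and 0 had an unadjusted p under 0.05, where 0.0162 and 2.27% of all genes did, and the median log2 fold change was 0.11. Within the *APP/PS1* pairs 0 of 41 were called by either tool (0.00808% of all genes) and 6 of 41 (14.6%) had an unadjusted p under 0.05, against 3.97% of all genes, all 6 lower in Nlrp3 KO. The median was -0.37 (0.01 for all genes tested), and 36 of 41 genes had a negative value. This is a count over genes of the same pools, some of which share reads, and so a description. The 2 neutrophil and 2 border macrophage markers tested had positive medians, 1.97 and 0.64, with *S100a9* and *Pf4* at an unadjusted p under 0.05, as did 6 of 48 G2/M genes, all higher in KO, and the part of this in the histone values was not tested. *Hist1h4d* was at 37.9 (KO) against 50.1 CPM at the age of 3 months and at 21.4 against 48.8 CPM at 9 months (-0.73, SE 0.18, unadjusted p = 0.0045, adjusted p = 0.99 by edgeR). *Hist1h4c* was at 3.13 against 6.01 CPM and 4.38 against 10.3 CPM at these ages, and *Hist2h2ac* at 8.97 against 11.6 CPM and 5.34 against 9.15 CPM. *Hist1h2ab* (-0.99, SE 0.28), *Hist1h3e* (-0.93, SE 0.30) and *Hist1h2bj* (-0.78, SE 0.32) were the others. All 6 thus lay lower in the KO library of both pairs, and none passed the adjustment. The *APP/PS1* library at 9 months, which is the WT side of a pair, had the highest broadly counted sum of all libraries, at 364 CPM against 228 to 271 CPM in the other 9.

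The difference of the Nlrp3 effect between the 2 backgrounds was tested as such. Of 41 genes 0 were called by edgeR or DESeq2 (0% of all genes by edgeR), and 4 had an unadjusted p under 0.05, against 2.50% of all genes. These were *Hist1h4d* (-0.65, SE 0.23), *Hist2h2ac* (-0.61, SE 0.22), *Hist2h4* (-0.97, SE 0.38) and *Hist1h4a* (-1.85, SE 0.78), the last on 160 UMIs in all microglia. The median of the 41 was -0.64 with a median SE of 0.51. The 2 neutrophil markers tested had a median of 3.31, both with an unadjusted p under 0.05 by edgeR. The 48 G2/M genes tested had a median of 0.57, with 3 at an unadjusted p under 0.05. The part of these cells in the histone values was not tested.

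**Figure D5:**
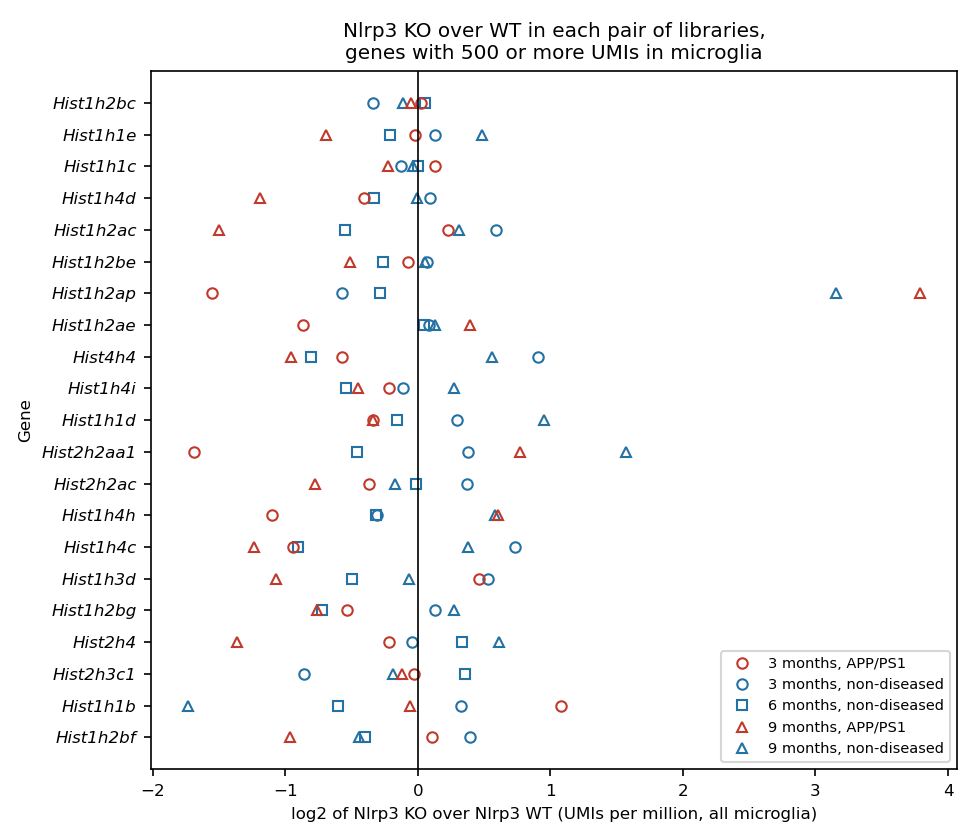
Log2 ratio of Nlrp3 KO over Nlrp3 WT microglia in each of the 5 pairs for the 21 histone cluster genes with at least 500 UMIs, from CPM, with *APP/PS1* pairs in red and non-diseased pairs in blue. *Hist1h2ap* stands at 3.15 and 3.79 in the pairs at 9 months and below 0 in the other 3.

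Among the 21 genes with at least 500 UMIs in microglia, *Hist1h2ap* had the widest spread between pairs. With KO before WT, its microglial level was 11.1 against 16.5 CPM in the non-diseased and 8.80 against 25.8 CPM in the *APP/PS1* pair of 3 months, and 12.3 against 14.9 CPM in the pair of 6 months. The pairs of 9 months had 42.4 against 4.76 CPM (non-diseased) and 64 against 4.62 CPM (*APP/PS1*). So KO lay lower in the 3 younger pairs and higher in both older ones. At 9 months the KO level was higher in HM, at 29.7 against 2.30 CPM and 34.1 against 3.4 CPM, and in PM, at 477 against 66.1 CPM and 738 against 58.5 CPM. The difference was not confined to microglia. In the other CD45+ cells *Hist1h2ap* held 314 UMIs in 224 cells (KO) against 29 in 236 (WT) in the non-diseased pair. In the *APP/PS1* pair it held 157 UMIs in 468 cells against 41 in 868. What the libraries share here was not tested. At 6 months HM and PM differed in direction, at 10.1 against 14.3 CPM in HM and 108 against 40.6 CPM in PM. Over the 5 pairs its log2 fold change was 0.57 (SE 0.73, 95% interval -1.12 to 2.25 by edgeR). The PM-linked sum of the pairs at 9 months, at 66.7 against 28.8 CPM and 99.7 against 37.6 CPM, contains this gene, and without it the sum was 24.3 against 24.1 CPM and 35.7 against 33 CPM. *Hist2h2aa1*, which has no unique read position, was at 25.4 against 8.55 CPM and 18.6 against 10.9 CPM in the same pairs. The part of read sharing in these values was not tested. Past 2-fold in the non-diseased pair at 9 months lay 2.81% of all genes, against 0.184 to 0.523% in the other 4 pairs.

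Whether histone levels differed with amyloid was asked in 4 pairs, *APP/PS1* against non-diseased, each matched for age and *Nlrp3*. The summed ratio was 1.20 (WT) and 1.0 (Nlrp3 KO) at 3 months and 1.53 (WT) and 1.01 (Nlrp3 KO) at 9 months, the 1.53 resting on the *APP/PS1* library with the highest broadly counted sum. Of 41 genes tested 0 were called by edgeR or DESeq2, against 0.0407% of all 12282 genes. An unadjusted p under 0.05 was found for 4 of 41 (9.76%), all higher in *APP/PS1*, against 7.47% of all genes. The median log2 fold change was 0.23 (0.00 for all genes), and 38 of 41 were positive, a count over genes of the same pools. Markers of other cells had positive medians too, at 1.80 for the 2 monocyte, 1.33 for the 2 neutrophil and 0.79 for the 2 border macrophage genes tested, of which *Ly6c2* had an unadjusted p under 0.05, and their part in these values was not tested. *Hist1h1b* was at 3.03 against 2.54 CPM in WT and 6.41 against 3.19 CPM in Nlrp3 KO mice at 3 months, and at 5.80 against 3.35 CPM and 5.56 against 1.01 CPM at 9 months (0.98, SE 0.28, unadjusted p = 0.0093, adjusted p = 0.51 by edgeR). *Hist1h3d* (0.56, SE 0.17), *Hist1h2bh* (0.74, SE 0.31) and *Hist1h1c* (0.17, SE 0.06) were the others, higher in 4, 4 and 3 of 4 pairs. The PM share had the same direction as *Hist1h1b*, being higher in the *APP/PS1* library of all 4 pairs, and *Mki67* had a log2 fold change of 0.86 (SE 0.30, adjusted p = 0.60 by edgeR). An unadjusted p under 0.05 by edgeR was found for 17 of 48 G2/M genes and 9 of 39 S genes, all higher in *APP/PS1*, and 0 were called. In microglia without PM, *Hist1h1b* was at most 0.329 CPM in any library.

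In the other CD45+ cells, summed per library, 29 genes could be tested for Nlrp3 KO against WT. edgeR and DESeq2 called 0 of these (0% of 11017 genes by edgeR), and 2 had an unadjusted p under 0.05, against 3.46% of all genes. *Hist1h4c* was at 4.43 against 7.24 mean CPM (-0.70, SE 0.29, adjusted p = 1.0 by edgeR), lower in 4 of 5 pairs, and *Hist1h3a* at 2.91 against 4.37 mean CPM (-0.61, SE 0.26), lower in 5 of 5. In microglia *Hist1h3a* had a log2 fold change of 0.17 (SE 0.32).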

How the data were processed

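CD45+ brain cells of 10 libraries, 1 per genotype and age, were analysed. The authors aligned reads of 91 bases to mm10 with Cell Ranger (version not given in the sources used here), removed outlier cells with Scater and clustered with Seurat, and deposited UMI counts per gene and cell without normalization, with cell annotations. The authors also deposited, for each cell, the percent of UMIs on mitochondrial genes and a doublet score given as a fraction from 0 to 1. Of 52369 cells, 6897 under 2 sample names that match no sample description were not used, which left 45472 (40547 microglia). Counting error alone is covered by the intervals of shares, and the UMIs per library limit precision.

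Members were the symbols matching Hist1h to Hist4h without *Hist3h2a* and *Hist3h2ba*. Members, lists and limits were chosen with earlier results of these data known. Named are genes with at least 200 UMIs in microglia or 20 in PM, and those with an unadjusted p under 0.05. A PM-linked gene had at least 20 UMIs in PM and 8 times the HM level (an HM count of 0 set to 3), a broadly counted gene at least 1 CPM in HM and under 2 times its level in PM. Of the other lists, *Slbp*, *H2afz*, *H3f3b*, *Mki67* and genes past the limits are named. Named with values already seen were *Asf1b* and those genes of a list given with a ratio of PM to HM. The same holds for *H2afy2*, *H1fx*, *Zfp473*, markers of cell types, *Hist1h2ao*, *Hist2h2aa2* and *Nlrp3*.

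UMIs were summed per library and cell class, filtered with filterByExpr, scaled by TMM and fitted in edgeR 4.0.16 (R 4.3.3) by quasi-likelihood, with Benjamini-Hochberg adjustment over all genes, with the pair (age and background, or age and Nlrp3 genotype) or the library as a block. Since the groups have no numbered replicates, the pairs come from the labels of age and genotype. p-values rest on the spread of an effect between pairs, or between libraries for the phase scores. Since no genotype and age has replicate pools, the spread between like pools is not measured. The fits were tested on simulated data. Alternatives were DESeq2 1.42.0 and its size factors, no filter, the adjusted p alone, HM cells, no PM cells, no cells with a doublet score over 0.5, thinning to 2000 UMIs, other phase splits, additive covariates and leaving out each pair or library. Transcripts were those of GENCODE mouse release 21 and promoters those of RefSeq. Python 3.11.15 was used for sums and figures.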

Additional observations from a re-analysis of the deposited data

Results flagged for a closer look

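Single libraries stood apart from the others by Dixon's criterion in 7 of 76 groups of values searched, 6 of them levels of a gene within the 5 libraries of an Nlrp3 genotype and 1 a ratio over all 10 libraries. Chance gives about 1 in 20 for like, normally spread replicates. These groups mix ages and backgrounds, so that rate is no measure of the number expected here. In microglia of Nlrp3 KO mice at 3 months *Hist1h3e* was at 2.33 CPM against 1.33 to 1.5 CPM in the other Nlrp3 KO libraries. In the Nlrp3 KO *APP/PS1* library of 9 months *Hist1h3c* was at 0.962 CPM against 0.313 to 0.465 CPM, and *Hist1h2af* at 1.07 CPM against 0 to 0.285 CPM. This library also had the highest share of PM cells, 3.76%. In *APP/PS1* mice at 9 months *Hist1h1c* was at 48.3 CPM against 38.8 to 41.4 CPM in the other libraries with an intact *Nlrp3*, *Hist2h4* at 7.98 CPM against 3.09 to 3.65 CPM and *Hist2h2bb* at 1.54 CPM against 0.617 to 0.823 CPM. In the same library *Hist1h2ac* was at 68.1 CPM. Over all 10 libraries the ratio of PM to HM of the broadly counted genes was highest in WT mice at 9 months, at 1.54, and stood apart by the same criterion.

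In microglia, 36 histone cluster genes were searched for a change of side with age in the effect of Nlrp3 deletion. The limits were at least 20 UMIs in each library and a log2 ratio past 0.25 in either direction in each pair of 3 and 9 months. Under these limits, 2 genes had both pairs at 9 months on one side and both pairs at 3 months on the other. The search was not run over all genes, so the count has no background and nothing is read from it. *Hist1h2ap* had log2 ratios of KO over WT of -1.55 and -0.57 at 3 months and 3.79 and 3.15 at 9 months, a difference of means of 4.54. *Hist1h4h* had -1.10 and -0.31 at 3 months and 0.61 and 0.58 at 9 months, a difference of 1.30. The difference between ages was not tested, and age cannot be told apart from the batch number of the cell annotation. Only 7.65% of read positions of *Hist1h2ap* and 60.0% of those of *Hist1h4h* are unique to the gene, and the part of this in the values was not tested.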

How the results depend on the processing

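Of 99 alternative settings 98 stayed within 1.5 times the count, or within 1 SD of the ratio, as reported. Most of these settings are of comparisons in which 0 histone cluster genes were called as reported. There at most 0.0407% of all genes were called by edgeR, so an unchanged 0 says little about stability. Between S-scored and G2/M-scored PM cells, thinning every cell to 2000 UMIs gave 2 genes called, since only 3 histone cluster genes then passed the filter. The other settings gave 9 to 16 genes called, among them 10 by DESeq2, 16 without a filter on low counts, 13 by the adjusted p alone, 10 with cells within 0.5 SD left out, and 10 to 12 with each library left out in turn. With cells below both medians left out, a setting chosen after seeing the data, 13 were called. Of all genes tested, 3.28% were called as reported and 9.9% with cells within 0.5 SD left out. The share was 5.82% with cells below both medians left out, 3.14% after thinning and 3.1% without doublets. Shares for the other settings are not given here. No histone cluster gene was called higher in S in the alternative splits, with doublets left out or after thinning. In the comparisons of Nlrp3 KO with WT and of *APP/PS1* with non-diseased mice 0 genes were called under the settings run. That holds with a pair left out where more than 1 pair remained for the contrast. For the Nlrp3 effect within *APP/PS1* and its difference between backgrounds, leaving out an *APP/PS1* pair leaves 1 library a side. The spread then comes from the non-diseased pairs alone, so nothing is read from it. Without the pairs as a replicate block, with additive covariates in their place, 0 genes were called in all microglia for Nlrp3 and 0 for *APP/PS1*, as with the pairs. The ratio of PM to HM ran from 2.49 to 2.83 with each library left out, and was 2.88 with states from the annotation of all cells and 2.78 with all microglia other than PM in place of HM. Each comparison of single ages has 1 library a side, and genes below the filter were not tested.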
